A study of Mus musculus with 2 samples.

Results

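Transcript levels of 10 genes of cholesterol efflux and of the liver X receptor (LXR) pathway, Abca1, Abcg1, Nr1h2, Nr1h3, Rxra, Pparg, Apoe, Lpl, Pltp and Mylip, were examined in mouse bone marrow-derived macrophages that lacked c-Maf. They were taken by name from the array annotation, which gave 14 probes in 32 spots, and all 10 genes had at least 1 probe well above background on both arrays, among 12419 named genes measured on both. The c-Maf-/- macrophages were set against c-Maf+/- macrophages, which keep a working copy of Maf, the gene of a basic leucine zipper transcription factor. Both had been grown from marrow for 5 days with M-CSF supplied as CMG14-12 culture medium, and both had received 100 ng/ml LPS, the bacterial endotoxin that activates macrophages, for 5 h. Each genotype was 1 sample on 1 one-colour array, so the genotypes could not be tested against each other and the values below compare 2 arrays. Wild-type and unstimulated cells were not analysed here, and the labels give neither the strain, the age and number of the mice nor the kind of Maf deletion.

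Macrophages take up lipoproteins and dying cells and cannot break down the sterol ring, so they dispose of surplus cholesterol by export. Oxysterols made from that cholesterol bind the LXRs, which sit on DNA as heterodimers with a retinoid X receptor (RXR) and switch on the export machinery, namely the membrane transporters ABCA1 and ABCG1 and lipid-carrying proteins such as apolipoprotein E. Inflammatory signals such as LPS are known to alter this programme in macrophages, and PPAR gamma, a fatty acid-sensing receptor, acts on it through the gene of LXR alpha.

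The 2 arrays were on 1 slide, and the spots detected well above background made up 44.9% for c-Maf-/- and 45.3% for c-Maf+/-. Both probes of Maf lost detection in the c-Maf-/- cells, where they read 12.6 and 5.96 against 15101 and 541 in the c-Maf+/- cells, at least 636-fold and 22.8-fold lower, which goes with the labels. All 9 macrophage markers examined, among them Csf1r and Cd68, were well above background on both arrays, with 4 above 0, 5 below and a median of -0.03. Csf1r was at -0.03, Cd68 at -0.40, Fcgr1 at -0.58 and Mertk at -1.91, against 0.46 for Cd14 and 0.58 for Lyz2. The summed signal of the list, 321145 in c-Maf-/- and 287247 in c-Maf+/-, was higher in c-Maf-/- mainly through Cd14 and Lyz2. Of 8 adipocyte markers, 6 (Adipoq, Cfd, Plin1, Cidec, Lep and Cidea) were not well above background on either array. Neutrophil markers moved between the arrays, with 9 of 10 measured, all 9 lower in c-Maf-/-, 5 of them at least 2-fold, and a median log2 difference of -1.01 (signals summing to 55300.3 in c-Maf-/- and 100025 in c-Maf+/-). Of 7 dendritic cell markers measured, 2 were at least 2-fold lower, with a median of -0.60 that was -0.26 when dim probes were kept. All 5 measured stroma and endothelium markers were below 0, with a median of -0.40, where 53.7% of all genes were below 0. That median is the value of Kdr, whose 2 probes disagreed, at -0.95 and 0.15. With its brightest probe alone Kdr was above 0, at 0.15, and the list's median was -0.32. Pecam1 was close to 0, at -0.01. Cdh5 was detected on the c-Maf+/- array alone, and its signal there was 2.32 times the other after scaling. Some of these 2-fold calls were lost under other settings. Mpo (-0.82), Prtn3 (-0.72) and the dendritic Itgax (-0.77) fell short under normexp background correction, and also without background subtraction. Itgax fell short under spike-in scaling too (-0.95). S100a9 fell short under spike-in scaling (-0.86), quantile normalization (-0.93), loess (-0.96) and scaling over detected probes (-0.99). The part of these markers in the values below was not tested, and in such bulk samples fewer cells of a type cannot be told apart from less RNA per cell.

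No gene of the 10 reached a 2-fold difference. The log2 differences, c-Maf-/- minus c-Maf+/- after each array was scaled to its 75th percentile, ran from -0.32 for Pparg to 0.48 for Pltp, with a median of -0.08. Over all 12419 genes, 1.43% were higher in c-Maf-/- macrophages by 2-fold or more and 1.74% lower by as much, so 0 of 10 is close to that background. The signs were divided, with 5 genes above 0 and 5 below, where 53.7% of all genes were below 0 and their median was -0.02. Higher in c-Maf-/- were Pltp, Abca1, Abcg1, Rxra and Nr1h2, and lower were Pparg, Lpl, Nr1h3, Apoe and Mylip. Each gene kept its sign under all 11 processing settings, although Nr1h2 came down to 0.01 when the arrays were scaled to their medians and Mylip up to -0.05 with its brighter probe alone.

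**Figure D1:**
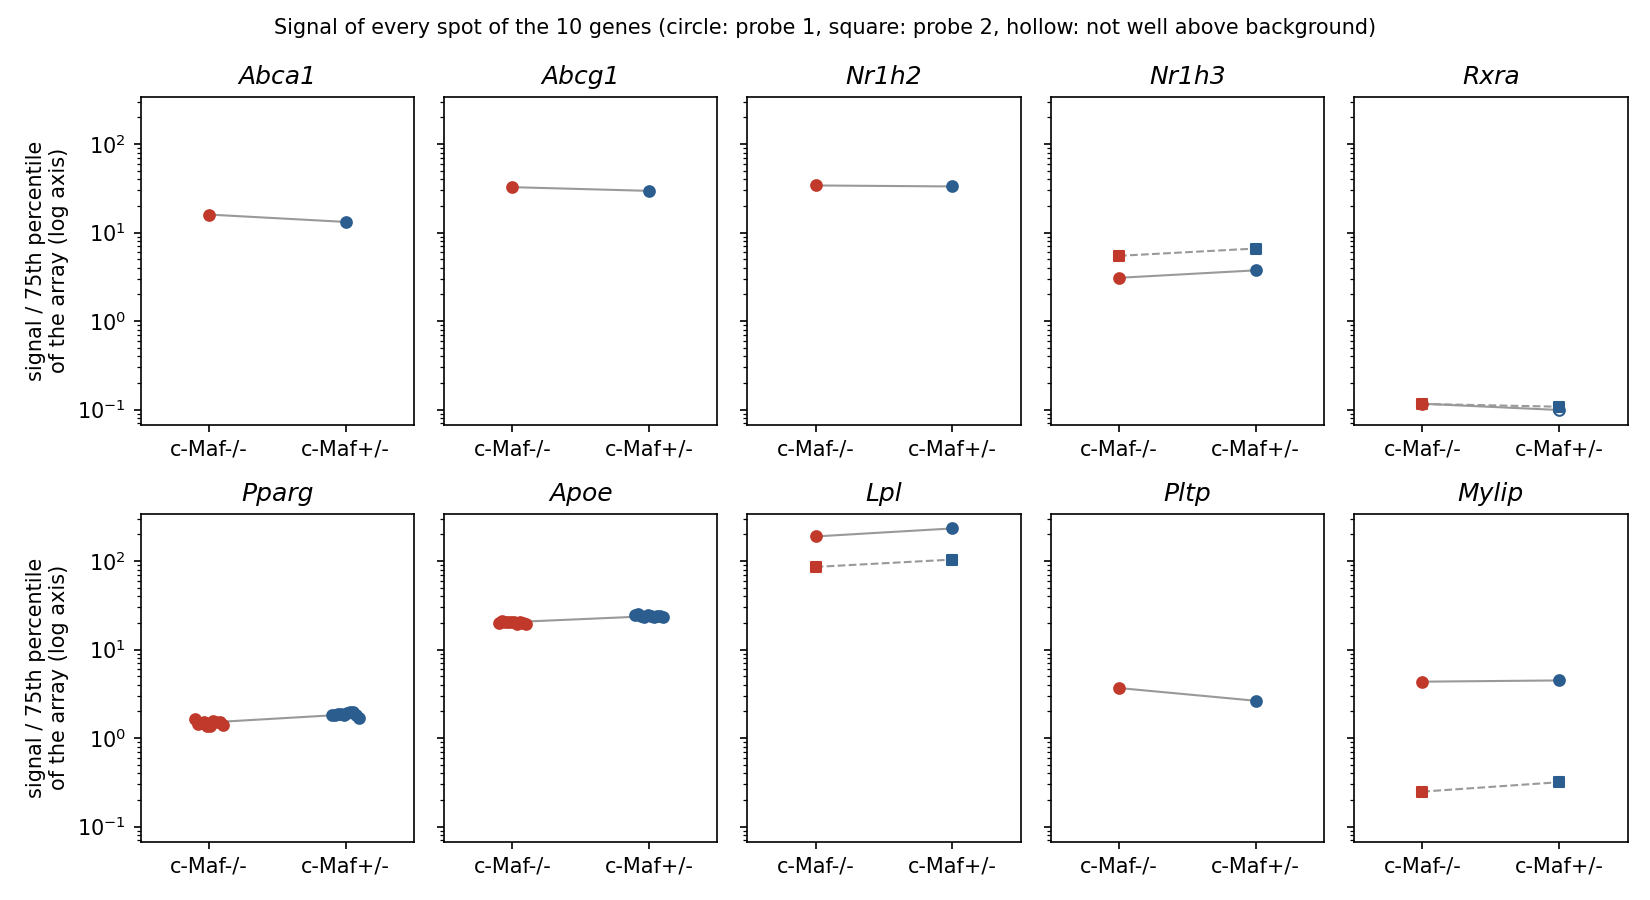
Processed signal divided by the 75th percentile of its array (log axis) for every spot of the 10 genes, with c-Maf-/- on the left and c-Maf+/- on the right of each panel, and lines joining the medians of a probe. Circles are the first probe and squares the second, and the hollow point marks the 1 Rxra spot not well above background. The lines are close to level in every panel, and heights of different probes are not comparable.

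Separate sources of error were at hand in place of replicates, and both describe the array and neither cultures nor mice. The error deposited for each spot is for bright spots mostly a fixed share of the signal preset in the software, per the file headers, and propagates to 0.20 on the log2 scale for the difference of a single bright spot. By that measure 1 of the 11 single-spot probes detected on both arrays, that of Pltp, differed by over 2 errors. The share of all probes past 2 errors was not computed, so that count has no background beside it. Of all genes, 17.2% lay at least as far from 0 as Pltp. Apoe and Pparg were each printed in 10 spots, which gives a direct spread. The log2 difference had a median SD of 0.07 over the spots of the 222 probes with at least 8 spots, and of 0.09 over the probes of the 3452 genes with at least 2 probes.

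The efflux transporters were both slightly higher in c-Maf-/- macrophages. Abca1, which loads cholesterol and phospholipid onto lipid-poor apolipoprotein A-I, read 4734 in c-Maf-/- and 3840 in c-Maf+/- (deposited errors 473 and 384). This is a log2 difference of 0.28 with an error of 0.20, a ratio of 1.21, at its single probe (chromosome 4, 53043944 to 53044003, mouse build mm9). Abcg1, which passes cholesterol on to mature high-density lipoprotein, read 9653 in c-Maf-/- and 8614 in c-Maf+/-, a difference of 0.14 with an error of 0.20 (chromosome 17, 31252580 to 31252639). The Abcg1 difference was thus smaller than its error, and that of Abca1 exceeded its error without reaching 2 errors. Set against all genes, 16.1% had a higher difference than Abca1 and 27.6% a higher one than Abcg1. When genes were divided into 4 equal classes by signal, both lay in the brightest class, where the median difference was -0.05 and those shares were 7.05% and 15.7%.

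Abca1 is the best-known LXR target, and the stretch just before its start is shown because it holds the LXR element. Capitals mark 2 stretches, a match to the element to which LXR and RXR bind as a pair, which is a direct repeat of AGGTCA with 4 bases between its copies, and one TGCTGA, the opening letters of the element that Maf proteins recognise. The sequence is from RefSeq, build GRCm38.p6, chr4:53159896-53160145, minus strand, the 250 bases before the transcript start.

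Abca1 promoter: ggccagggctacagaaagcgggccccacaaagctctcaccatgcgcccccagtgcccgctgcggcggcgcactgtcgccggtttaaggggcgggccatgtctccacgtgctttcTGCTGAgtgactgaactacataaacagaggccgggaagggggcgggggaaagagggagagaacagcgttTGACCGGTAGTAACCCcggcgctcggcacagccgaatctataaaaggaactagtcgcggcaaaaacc
Abca1 element, other strand: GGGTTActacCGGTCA

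The repeat lies between positions -67 and -52, read on the opposite strand, and of its 12 capital letters on the second line 9 match the searched repeat. A match that good was found on either strand of 21.9% of 32851 promoter windows of 300 bases, so the letters alone are common. TGCTGA lies between -136 and -131, and it or its complement occurs in 19.5% of those windows. Promoter windows were matched for 8 of the 10 genes by symbol, 14 windows in all. Their best matches to the LXR repeat ranged from 7 to 9 letters, with 9 also reached in 1 window each of Rxra and Pparg, and TGCTGA was present in the Abca1 window alone. These matches describe letters and are no measurement of binding.

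The receptor genes differed among themselves, with Nr1h2 and Rxra close to 0 and Nr1h3 and Pparg below it. Nr1h2 encodes LXR beta, the LXR found in most tissues, and had a signal of 10093 in c-Maf-/- against 9664 in c-Maf+/- (chromosome 7, 51805013 to 51805072). Its log2 difference of 0.04 was well inside the error of 0.20, and 87.9% of all genes lay at least as far from 0. Nr1h3 encodes LXR alpha, the form enriched in macrophages and liver, and was lower in c-Maf-/- macrophages at both of its probes. One probe (chromosome 2, 91024345 to 91024404) had signals in c-Maf-/- of 914 against 1090.4 in c-Maf+/-, and the other (91024250 to 91024309) had 1619 in c-Maf-/- and 1923 in c-Maf+/-. The probes lie close together on the chromosome and gave -0.28 and -0.27, each over 1 error and under 2, with a mean of -0.28 (1.21-fold lower in c-Maf-/-). Of all genes, 18.9% had a lower difference.

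Rxra, the gene of the RXR alpha partner, could hardly be read. One probe (chromosome 2, 27618781 to 27618839) read 34.4 in c-Maf-/- and 31.4 in c-Maf+/-. These are 1.42 times and 1.41 times the lowest signal of any detected probe on the array. The log2 difference of 0.10 there had an error of 0.41. The other probe (27615316 to 27615375) had 34.6 in c-Maf-/-, well above background, and 28.9 in c-Maf+/-, not well above background. Their ratio after scaling was 1.18, and its error on the log2 scale was 0.47. Whether Rxra differed could not be told at such signals. The relative Rxrb, measured beside it, was bright on both arrays, at 3521 in c-Maf-/- and 2982 in c-Maf+/- (0.21).

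Pparg was the lowest of the 10 genes. Over its 10 spots (chromosome 6, 115440213 to 115440272) the signal ran from 405 over a median of 445 to 493 in c-Maf-/- macrophages, and from 485 over 538 to 573 in c-Maf+/- macrophages. The log2 difference was -0.32 with an SD of 0.09 over spots, 1.25-fold lower, and all 10 spots were lower in c-Maf-/-. After scaling, the highest c-Maf-/- spot (1.66 times the 75th percentile) fell just short of the lowest c-Maf+/- spot (1.67 times), and with spike-in scaling the spots overlapped. Of the 222 probes with at least 8 spots, 38.7% had spots that did not overlap between the arrays, so separation of spots is common here. Of all genes, 16.4% had a lower difference than Pparg.

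**Figure D2:**
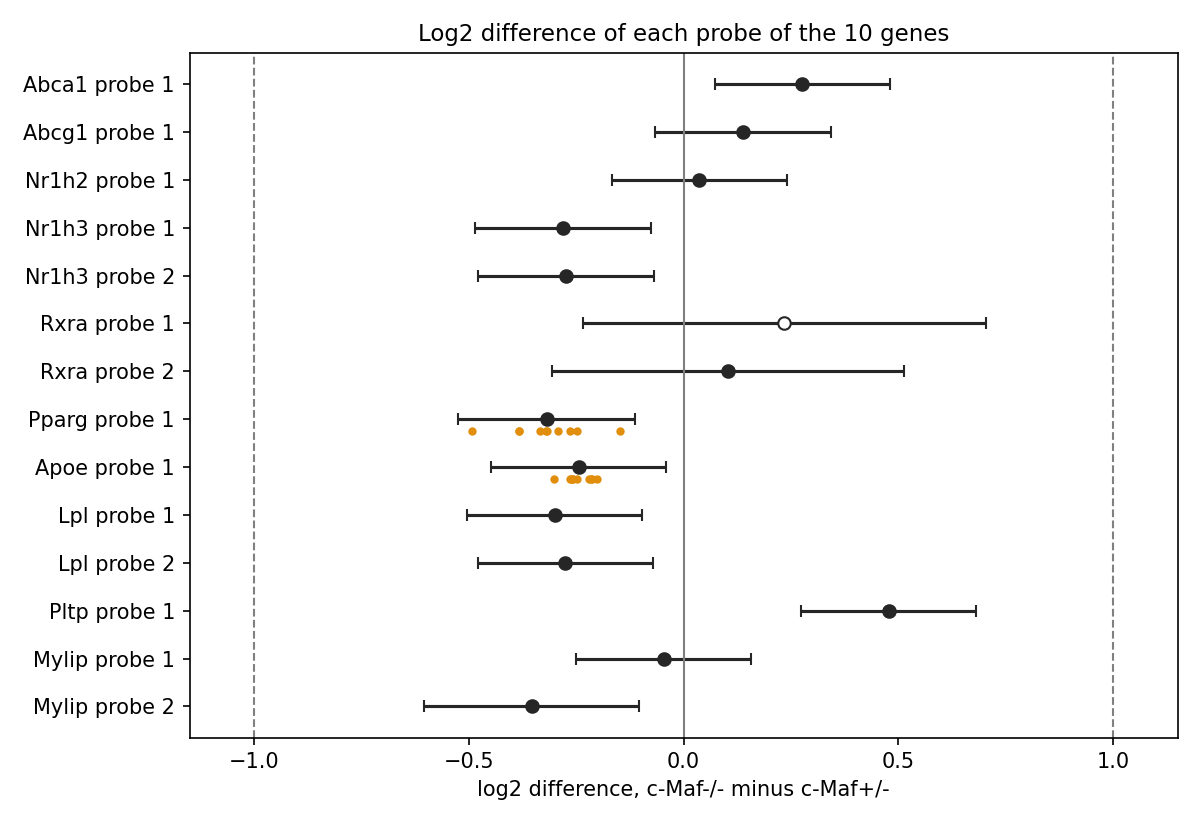
Log2 difference, c-Maf-/- minus c-Maf+/-, of each of the 14 probes, with bars of 1 error from the deposited spot errors and small orange points for the 10 single spots of Pparg and Apoe. The hollow point is the Rxra probe detected on 1 array only, and dashed lines mark 2-fold. All 14 points lie well within the dashed lines, and Pltp lies farthest from 0.

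Lipoprotein genes went both ways. Apoe encodes the apolipoprotein that macrophages secrete as a carrier of exported cholesterol. Its signal over 10 spots ran from 5732 over a median of 6053 to 6190.0 in c-Maf-/- macrophages, and from 6755 over 6933 to 7274 in c-Maf+/- macrophages (chromosome 7, 20281732 to 20281791). The spots did not overlap, and the log2 difference was -0.24 with an SD of 0.03 over spots, 1.18-fold lower in c-Maf-/-. That SD was narrower than the one of Pparg, the other gene with 10 spots, while the deposited error of Apoe was 0.20, like that of other bright probes. Of all genes, 39.5% lay as far from 0 as Apoe or farther. Spike-in scaling, which moved every gene up by 0.15, left Apoe at -0.10 with the spots of the arrays just apart.

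Lpl encodes lipoprotein lipase, which frees fatty acids from triglyceride-rich lipoproteins. It was bright on both arrays, and its signals were 56203 in c-Maf-/- and 67982 in c-Maf+/- at one probe (chromosome 8, 71430267 to 71430326), and 25439 in c-Maf-/- and 30234 in c-Maf+/- at the other (71425050 to 71425109). The probes lie apart on the chromosome and gave close values, -0.30 and -0.27, with a mean of -0.29 and an SD of 0.02 over probes, 1.22-fold lower in c-Maf-/-. Of all genes, 18.3% had a lower difference. Pltp encodes phospholipid transfer protein, which remodels high-density lipoprotein, and stood highest. It read 1090.1 in c-Maf-/- against 769 in c-Maf+/- (deposited errors 109 and 77.1), a difference of 0.48 with an error of 0.20, 1.39-fold higher (chromosome 2, 164665022 to 164665081). It ranged from 0.43 to 0.62 over the settings, 7.63% of all genes had a higher difference, and it rests on 1 spot.

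Mylip encodes the LXR-induced ubiquitin ligase, also called IDOL, that limits lipoprotein uptake, and its probes did not give the same value. The brighter probe (chromosome 13, 45506979 to 45507038) had signals in c-Maf-/- of 1286 against 1305 in c-Maf+/-, a difference of -0.05. The dim probe (45503808 to 45503867) had 73.7 in c-Maf-/- and 92.5 in c-Maf+/-, a difference of -0.35 with an error of 0.25. The gene's mean of -0.20 had an SD of 0.22 over the 2 probes, so the difference was smaller than the spread between its probes.

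The probe sequences of Apoe, the most precise value, of the second Lpl probe, one of a pair that gave close values, and of the dim Mylip probe, one of a pair that did not, are shown 5′ to 3′ as the files give them, with no part picked out in capitals. Their mm9 positions and strands are chr7:20281732-20281791 (minus), chr8:71425050-71425109 (plus) and chr13:45503808-45503867 (plus).

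Apoe probe: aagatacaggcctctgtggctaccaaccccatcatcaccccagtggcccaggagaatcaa
Lpl probe: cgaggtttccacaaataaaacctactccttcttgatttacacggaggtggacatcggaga
Mylip probe: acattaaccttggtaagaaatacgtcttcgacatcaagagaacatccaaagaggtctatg

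**Figure D3:**
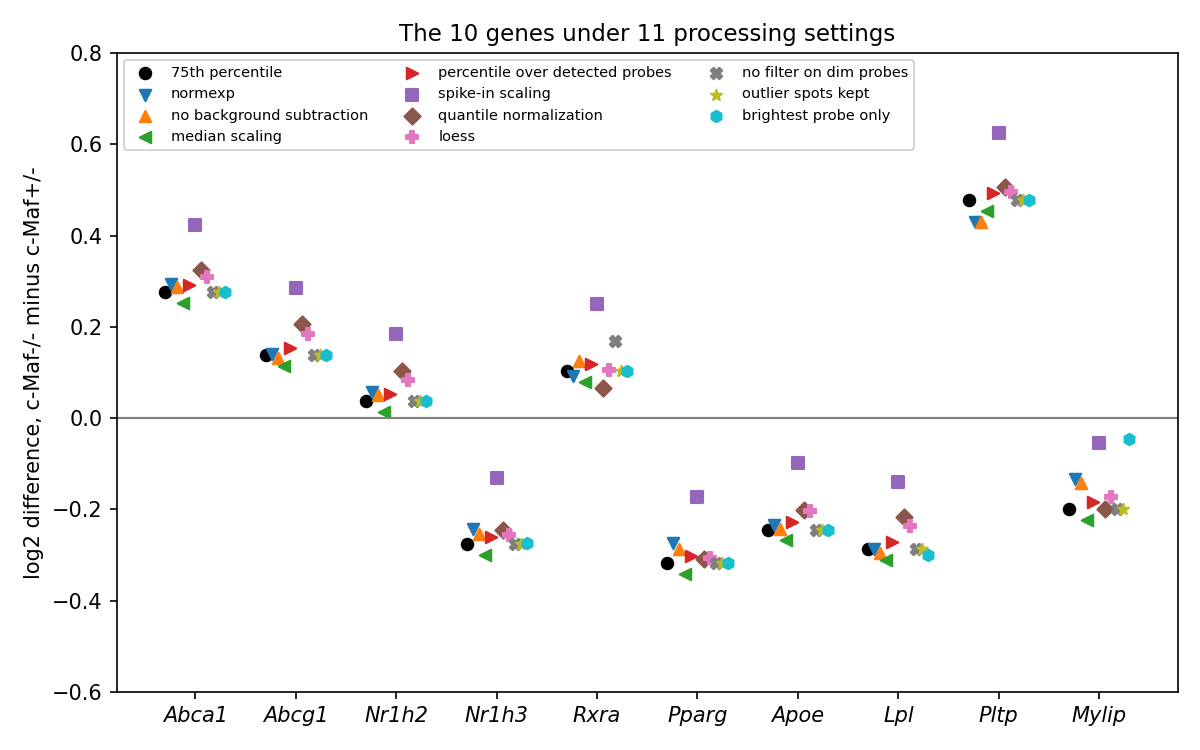
Log2 difference, c-Maf-/- minus c-Maf+/-, (vertical axis) of each of the 10 genes (horizontal axis) under 11 processing settings, 1 symbol each. Spike-in scaling (square) lies above the other settings for every gene but Mylip, and no gene crosses 0 or reaches 1 or -1.

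Some other LXR target genes lay farther from 0 than any of the 10 genes. Of 18 on the list, 12 were measured, with 2 past 2-fold on the higher side in c-Maf-/- macrophages, 1 past it on the lower, and a median of 0.14. Both higher ones are stearoyl-CoA desaturases of fatty acid synthesis, Scd2, with signals in c-Maf-/- of 4291 against 311 in c-Maf+/- (3.76), and Scd1, with 143 in c-Maf-/- and 31.7 in c-Maf+/- (2.15, and 1.18 to 2.29 over the settings). The c-Maf+/- signal of Scd1 was near the lowest detected on that array, 22.3, so the size of its difference is uncertain. The lower one was Mertk, a receptor for apoptotic cells, with 73.5 in c-Maf-/- and 271 in c-Maf+/- (-1.91). Srebf1, the LXR-induced factor through which LXR acts on fatty acid synthesis, lay within the range of the efflux genes at 0.27, with signals in c-Maf-/- of 109 against 88.7 in c-Maf+/-, as did Lpcat3 (0.14), a phospholipid-remodelling enzyme. The transporters Abcg5 and Abcg8 were not well above background on either array.

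RXR partners and coregulators held no gene past 2-fold among 25 measured of 30, with 10 above 0, 15 below and a median of -0.11, which was 0.04 with spike-in scaling. Farthest from 0 were Ppard, the gene of PPAR delta, with 2287 in c-Maf-/- and 1159 in c-Maf+/- (0.95), and Rarg, the gene of retinoic acid receptor gamma, with 1231 in c-Maf-/- and 638 in c-Maf+/- (0.92). Both passed 2-fold with spike-in scaling, at 1.10 and 1.07. Ppard thus lay above 0 and Pparg below it. The corepressor gene Ncor1, whose product holds LXR targets silent without ligand, was at -0.06 over 4 probes that ran from -0.56 to 0.22.

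PPAR target genes of lipid handling leaned the same way as Pparg by small amounts. Of 14 measured, 12 were below 0, or 85.7% against the 53.7% of all genes, none was past 2-fold, and the median was -0.15. Farthest were Klf4, a transcription factor, with 309.8 in c-Maf-/- and 466 in c-Maf+/- (-0.62), and Fabp4, a fatty acid chaperone, with 3336 in c-Maf-/- and 4559.5 in c-Maf+/- (-0.48). The fatty acid importer gene Cd36 and the lipid droplet coat gene Plin2 were both at -0.27, close to Pparg itself. With spike-in scaling the list's median was at -0.004, so its distance from 0 depends on the scaling. The median of all genes moved alike, from -0.02 to 0.12, and the list's median lay below it under both scalings. Among 5 measured foam cell and lipid droplet markers, Hilpda, a droplet protein that inhibits lipolysis, was higher at 1.02, with 4475 in c-Maf-/- and 2168 in c-Maf+/- (0.996 with median scaling), and the list's median was -0.27. That median is the value of Plin2. Since Plin2, Cd36 and Fabp4 are on the PPAR list too, it is no separate result.

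The genes around the LXR ligands and the sterol supply were not level. Ch25h, which makes the oxysterol 25-hydroxycholesterol, was the 1 gene past 2-fold among 8 measured for oxysterol synthesis and conversion. It read 14311 in c-Maf-/- and 30728 in c-Maf+/-, a difference of -1.13 that was -0.98 with spike-in scaling. The list's median was 0.02. SREBP2 target genes bring in and make cholesterol when cells are short of it. Their list also held Srebf2, the gene of SREBP2 itself, and Scap, the gene of its escort protein. Of 17 genes measured on that list, 15 were above 0, where 46.3% of all genes were above 0. The 2 below were Srebf2 (-0.16) and Scap (-0.27). The SREBP2 list had a median of 0.41 beside -0.02 for all genes. Mvd, a mevalonate pathway enzyme, passed 2-fold, with 502 in c-Maf-/- and 233 in c-Maf+/- (1.08, but 0.91 with normexp background correction). The median was 0.38 with the arrays scaled to their medians and 0.36 with dim probes kept.

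Uptake, storage and transport genes were mostly near 0, with a median of -0.06 over 30 measured of 33, turning to 0.08 with spike-in scaling. Stard4, a cytosolic sterol carrier, was the 1 gene past 2-fold, with 164 in c-Maf-/- and 62.4 in c-Maf+/- (1.34, but 0.83 with normexp), and its probes gave 0.87 and 1.81. Partners of lipoprotein lipase and of lipoprotein remodelling had a median of -0.01 over 13 genes and none past 2-fold. Lipg, endothelial lipase, had 682 in c-Maf-/- and 1299 in c-Maf+/- (-0.95), and Apoc3, an inhibitor of lipoprotein lipase, was at -0.43. Partners of MYLIP and of ABCA1 decay had a median of -0.11 over 11 genes, 0.04 with spike-in scaling, and none past 2-fold. The syntrophin gene Sntb2 was at 0.95, with 688 in c-Maf-/- and 349.9 in c-Maf+/-, and was past 2-fold with spike-in scaling, at 1.10.

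**Figure D4:**
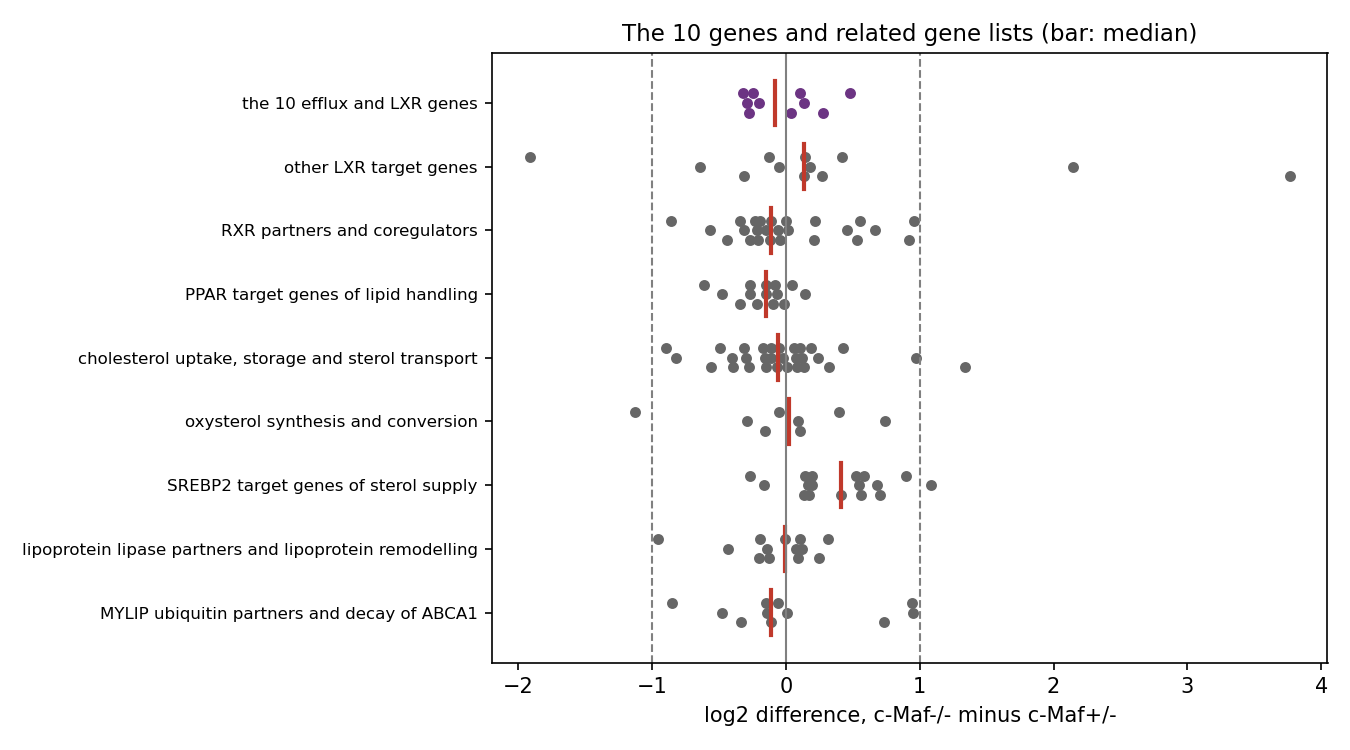
Log2 difference, c-Maf-/- minus c-Maf+/-, of each measured gene (points) in the 10 efflux and LXR genes (top row, purple) and in 8 lists of related genes, with red bars for medians and dashed lines at 2-fold. The 10 genes lie in a narrow band from -0.32 to 0.48, while other LXR target genes reach from -1.91 to 3.76.

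In these arrays the 10 genes were bright on the whole, with 5 in the brightest of the 4 signal classes and 1, Rxra, in the dimmest. In the brightest class 1.42% of genes were past 2-fold and the SD of differences was 0.31, against 5.93% and 0.51 in the dimmest. Within their own signal class, the share of genes at least as far from 0 ranged from 13.6% for Pltp to 82.1% for Nr1h2.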

How the data were processed

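Macrophage RNA (50 ng labelled a sample, per the labels' protocols) was measured on 2 arrays. The deposited intensities were written by Agilent Feature Extraction 10.7.3.1, per the file headers, with spatial detrending within the array and no normalization between arrays. The flags for controls, outliers and detection are other deposited values of the authors' files. The log2 scale was computed here from the deposited intensities, less each array's 75th percentile over its 59305 spots that are no controls (c-Maf-/- 296, c-Maf+/- 291). Outlier spots were dropped, no spot was saturated, spots of a probe were averaged, and a gene's value was the mean of its probes well above background (in most of their spots) on both arrays. A probe detected on 1 array was set against the higher of its own dim signal and the lowest detected signal. This gave a bound for Maf. For Rxra and Cdh5 the dim signal was the higher, so their values are plain ratios and no lower limits. Names came from the files, updated through RefSeq for 31817 of 55681 probes, and all-gene counts use these. Positions are those of the files (mm9), and exon or UTR positions were not assigned, since no annotation of that build was used.

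Alternatives were normexp (limma 3.58.1), no background subtraction, 5 other scalings, no detection filter, outliers kept and the brightest probe. The genes, lists and 2-fold threshold were chosen with earlier results of these data known. Named genes were the 10 genes, and in each list those past 2-fold or else the 2 farthest from 0. Rxrb, Srebf1, Lpcat3, Abcg5, Abcg8, Ncor1, Cd36 and Plin2 were added with their values known, and some genes that the rule names are not reported here. The number of arrays limits every comparison, and slide position cannot be told apart from genotype.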

Additional observations from a re-analysis of the deposited data

How the results depend on the processing

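All 10 genes stayed on their side of 0 and within 2-fold under the 10 alternatives, and 94 of their 100 alternative values moved by less than the gene's error, which is the SD over spots for Apoe (0.03) and Pparg (0.09) and the wider deposited error for the others. Of the 6 that moved more, 4 came with spike-in scaling, which raised all genes by 0.15, and 3 were of Apoe, whose error is the narrowest. Keeping outliers left all 10 values unchanged, and the brightest probe cannot change a gene with 1 measured probe. The spike-in shift is also smaller than the deposited error of a single bright spot (0.20). The count of 94 therefore depends on the settings chosen and on the error used for each gene. Genes past 2-fold numbered 177 on the higher and 216 on the lower side in c-Maf-/- macrophages. These counts became 68 and 109 under normexp, 82 and 124 when no background was subtracted, 270 and 140 under spike-in scaling, and 885 and 871 when dim probes were kept. The share of these on the higher side was 45.0%, and 65.9% with spike-in scaling. Scaling thus set the sign of some list medians near 0, such as that of RXR partners and coregulators (-0.11, and 0.04 with spike-in scaling). It did not change the sign of any of the 10 genes. Signal near background limits Rxra and the dim Mylip probe. No paired analysis was possible because each genotype had 1 array.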
